A study of Mus musculus with 4 samples.

Results

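The genes described here are those of the potassium channel family, read in cultured mouse cardiac fibroblasts with and without PMCA4. PMCA4 is plasma membrane calcium ATPase isoform 4, a pump that moves calcium out of the cell and is encoded by *Atp2b4*. Members were all genes whose single array symbol begins with Kcn and goes on with letters and a number. There were 82 of them among 20587 measured genes. The fibroblasts came from 3-month-old male mice, either *PMCA4*-/- or WT. The *PMCA4*-/- animals carried a global deletion, made by replacing exon sequence with a neomycin cassette, so every cell type of the heart lacked the pump. In each genotype some cells received phenylephrine, which activates α1-adrenergic receptors, at 30 µM for 72 h and others were untreated. All cells were cultured for 4 days. RNA of 3 batches was pooled for each of the 4 Affymetrix arrays. The arrays were phenylephrine-treated *PMCA4*-/-, untreated *PMCA4*-/-, phenylephrine-treated WT and untreated WT. Each condition had 1 array, so no value has a replicate error, and precision is limited by their number.

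Potassium channels let potassium leave the cell and so hold the membrane at a negative resting potential. Voltage-gated pores open on depolarization, calcium-activated pores open when cytosolic calcium rises, inward rectifiers and K2P pores (subunits with a pair of pore domains) carry resting current, and auxiliary subunits change how the pores open or reach the membrane. In cardiac fibroblasts, currents of several of these kinds have been recorded, and the resting potential set by them influences calcium entry.

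Intensities were estimated by PUMA, which models the probes of each probe set, and are given in linear units. The array medians were all 34.0. Where a gene had several probe sets, the brightest by its 4-array mean was used, and intensities of different probe sets do not rank genes by transcript level. Across genes, log2 values correlated at 0.995 between the arrays of 1 genotype and at 0.857 to 0.860 between genotypes, as a description of 4 libraries. The probe set for *Atp2b4* was dim, at 31.6 and 37.9 on the *PMCA4*-/- arrays (untreated, phenylephrine), against 19.6 and 23.3 on the WT arrays. Its place relative to the deleted exons is unknown, so it does not check the genotype.

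Most potassium channel genes were dim in these fibroblasts. Only 12 of the 82 members (14.6%) had a mean intensity above 35.1, the median of that mean over all probe sets, against 55.5% of all genes. On their own arrays, 66 members were below the array median on every array (80.5%, against 41.1% of all genes) and 8 were above it on all 4 arrays (9.76%, against 51.8%). The line fell between *Kcnn4*, just above at 35.5, and *Kcnu1*, just below at 34.0. The Robust Multiarray Average (RMA), the second estimate of the same arrays, gave 12 members above its own array median on all 4 arrays (14.6%, against 53.4% of all genes), and 9 of the 12 genes counted by PUMA were among them.

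**Figure D1:**
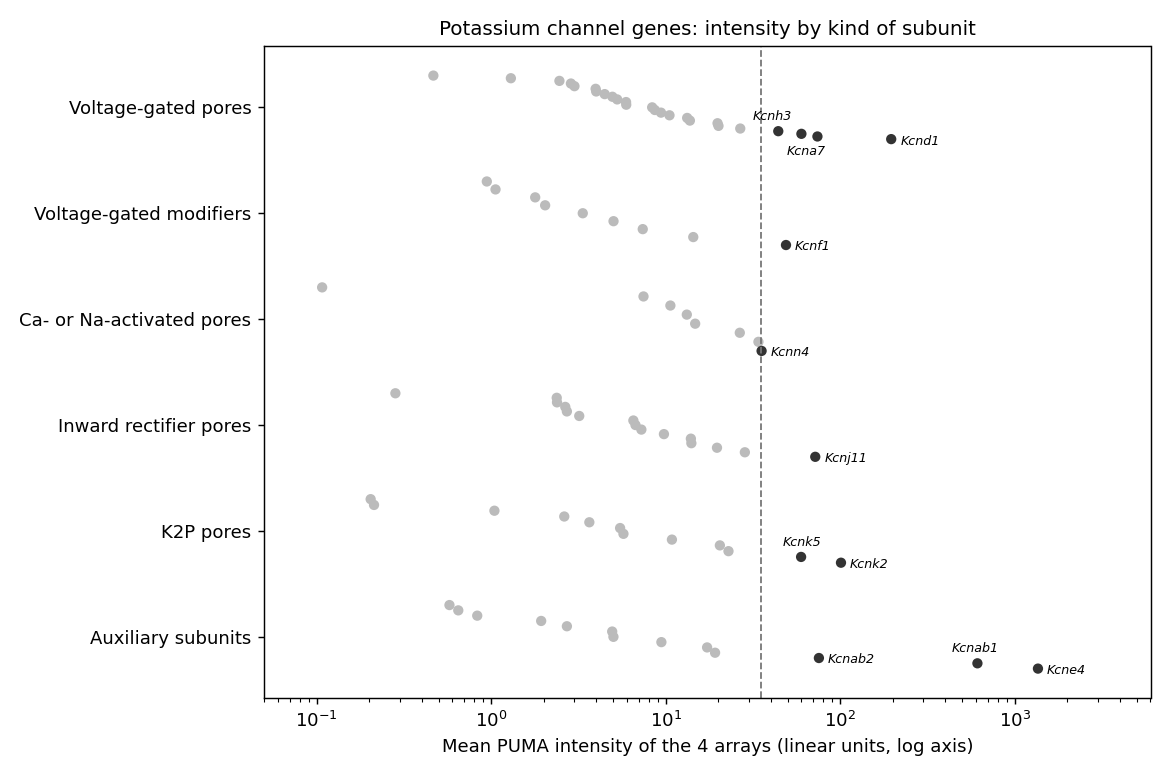
Mean PUMA intensity over the 4 arrays (linear units on a log axis) for the 82 members, by kind of subunit. Black points are the 12 genes above the dashed line at 35.1 and grey points are the 70 below it.

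By the mean of all 4 arrays, every kind of subunit had at least 1 member above the line. Of 13 auxiliary subunits, 3 were above it: *Kcne4*, a single-span subunit that inhibits voltage-gated pores such as Kv7.1, and *Kcnab1* and *Kcnab2*, the cytoplasmic Kvβ1 and Kvβ2 subunits of Kv1 channels. Of 25 voltage-gated pores, 4 were above it, among them *Kcnd1* (Kv4.1, an A-type pore), *Kcna7* (Kv1.7) and *Kcnh3* (Kv12.2). Of 9 voltage-gated modifiers, which form no working channel alone, the member above it was *Kcnf1* (Kv5.1, which joins other voltage-gated pores). Of 12 K2P pores, *Kcnk2* (TREK-1, opened by stretch and lipids) and *Kcnk5* (TASK-2, opened by alkaline pH) were above it. The 15 inward rectifiers gave *Kcnj11* (Kir6.2, the pore of ATP-sensitive channels), and the 8 calcium- or sodium-activated pores gave *Kcnn4* (KCa3.1, opened by calcium through calmodulin). In PUMA *Kcnf1* and *Kcnn4*, each the only member of its kind above the line, were below the array median on both WT arrays. So was *Kcnk5*.

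The 70 members below the line included the pores and subunits of well-known cardiac currents. Among voltage-gated pores they included *Kcna1*, *Kcna2*, *Kcna3*, *Kcna4*, *Kcna5*, *Kcna6*, *Kcnc1*, *Kcnc2*, *Kcnc4*, *Kcnd2*, *Kcnd3*, *Kcnh1*, *Kcnh5*, *Kcnh7*, *Kcnh8* and *Kcnq1*, of which *Kcnd2* and *Kcnd3* form the transient outward current and *Kcnq1* the slow delayed rectifier of heart muscle. The modifiers were *Kcng1*, *Kcng2*, *Kcng4*, *Kcns1*, *Kcns2*, *Kcns3*, *Kcnv1* and *Kcnv2*. Calcium- or sodium-activated pores below the line were *Kcnma1* (the BK pore), *Kcnn1*, *Kcnn2*, *Kcnn3*, *Kcnt1*, *Kcnt2* and *Kcnu1*. Inward rectifiers below it were *Kcnj2* (Kir2.1, the classical resting pore of heart muscle), *Kcnj1*, *Kcnj3*, *Kcnj4*, *Kcnj5*, *Kcnj6*, *Kcnj8*, *Kcnj9*, *Kcnj10*, *Kcnj12*, *Kcnj13*, *Kcnj14*, *Kcnj15* and *Kcnj16*. The K2P pores were *Kcnk3* (TASK-1), *Kcnk1*, *Kcnk4*, *Kcnk6*, *Kcnk7*, *Kcnk10*, *Kcnk12*, *Kcnk13*, *Kcnk15* and *Kcnk16*. The auxiliary subunits were *Kcnab3*, *Kcne1*, *Kcne2*, *Kcne3*, *Kcnip1*, *Kcnip2*, *Kcnip3*, *Kcnip4*, *Kcnmb1* and *Kcnmb2*.

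The intensities of these 70 members spanned 0.0803 to 40.4 on the untreated *PMCA4*-/- array and 0.0627 to 28.7 on the untreated WT array, with medians of 5.36 and 4.83. Under phenylephrine the span was 0.151 to 45.5 in *PMCA4*-/- cells and 0.0490 to 29.6 in WT cells, with medians of 4.58 and 4.29. Differences between values this dim are not given as folds. In all, 6 members, *Kcne1*, *Kcnh5*, *Kcnj2*, *Kcnk10*, *Kcnk12* and *Kcnn3*, were under 1 on all 4 arrays.

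The first question was whether potassium channel genes differed between *PMCA4*-/- and WT fibroblasts. Some members were above the array median in 1 genotype only. In all, 6 of the 82 members (7.32%) were above it on both *PMCA4*-/- arrays and on neither WT array, against 1.57% of all genes, and 0 members were above it only on both WT arrays, against 1.75% of all genes. They included *Kcnk5*, *Kcnf1* and *Kcnn4*, and also *Kcnn1* and *Kcnu1*, whose means were below the line. With RMA 5 members were split in the first way, against 1.34% of all genes, and 0 in the second, against 1.31%. Only *Kcnk5*, *Kcnf1* and *Kcnn1* were on both lists. Some values lay near the median of 34.0, such as *Kcnn1* at 35.8 on the untreated *PMCA4*-/- array and *Kcnu1* at 28.7 on both WT arrays. These counts are a description and nothing is read from them.

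*Kcnk5*, the alkaline-activated TASK-2 pore, was the member furthest apart. Its intensity was 83.6 in untreated *PMCA4*-/- cells, against 4.89 in untreated WT cells. With phenylephrine it was 149 in *PMCA4*-/- cells, against 1.00 in WT cells. Both WT values lay far below the median and carry no level of their own. With each dim value raised to its array median, the gene was at least 2.46-fold higher in untreated *PMCA4*-/- cells and at least 4.39-fold higher with phenylephrine. RMA values as given put it higher by 2.11 and 1.75 on the log2 scale, with both WT values below the RMA array median. With dim RMA values raised to that median, the differences were 0.61 and 1.05. The other *Kcnk5* probe set was below the median on all arrays.

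*Kcnf1*, the silent Kv5.1 modifier, gave 70.3 in untreated *PMCA4*-/- cells, against 21.6 in untreated WT cells. With phenylephrine the values were 83.1 in *PMCA4*-/- and 20.7 in WT cells. Both *PMCA4*-/- arrays were above the median and both WT arrays below it. The gene was at least 2.07-fold higher untreated and at least 2.44-fold higher with phenylephrine. Differences of RMA values as given were 1.29 and 1.63 on the log2 scale, with both WT values below the RMA array median. The *PMCA4*-/- RMA values were 85.1 untreated and 104 with phenylephrine, against array medians of 73.0 and 72.8. With a mean RMA of 64.3, under the RMA line of 74.1, the gene was not counted when the filter was taken on RMA. A second probe set was below the median on all arrays in both estimates. Its RMA differences were 0.22 and 0.24.

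*Kcnn4*, the calcium-activated KCa3.1 pore, gave 40.6 in untreated *PMCA4*-/- cells, against 11.3 in untreated WT cells. With phenylephrine it gave 68.6 in *PMCA4*-/- cells, against 21.4 in WT cells. In PUMA the *PMCA4*-/- arrays were again above the median and the WT arrays below it. The bound on the fold was 1.19 untreated and 2.02 with phenylephrine. Its second probe set gave 28.4 in untreated *PMCA4*-/- cells, against 17.1 in untreated WT cells, both below the median. With phenylephrine it gave 60.6 in *PMCA4*-/- cells, against 21.6 in WT cells. In RMA the first probe set was above the array median on all 4 arrays, at 183 untreated and 203 with phenylephrine in WT cells. Its RMA differences were 0.51 and 0.50 on the log2 scale.

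The auxiliary subunits *Kcne4* and *Kcnab2* were lower in *PMCA4*-/- cells. *Kcne4*, the brightest member, gave 965 in untreated *PMCA4*-/- cells, against 1702 in untreated WT cells, a 1.76-fold lower value. With phenylephrine it gave 1190 in *PMCA4*-/- cells, against 1581 in WT cells, and was 1.33-fold lower. *Kcnab2*, which helps Kv1 pores to the surface, gave 50.1 in untreated *PMCA4*-/- cells, against 97.3 in untreated WT cells, 1.94-fold lower. With phenylephrine it gave 59.9 in *PMCA4*-/- cells, against 95.0 in WT cells, 1.59-fold lower. Both *PMCA4*-/- arrays lay below both WT arrays for each gene. In RMA the *Kcnab2* differences were -0.64 and -0.50 on the log2 scale, with the untreated *PMCA4*-/- value below the RMA array median. The other *Kcnab2* probe set was below the median on all arrays in both estimates. In RMA it was higher in *PMCA4*-/- cells, by 0.36 and 0.64.

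*Kcnab1*, whose Kvβ1 subunit speeds the closing of Kv1 pores, differed the other way from *Kcnab2*. It gave 723 in untreated *PMCA4*-/- cells, against 520 in untreated WT cells, and 678 with phenylephrine in *PMCA4*-/- cells, against 526 in WT cells. These were 1.39-fold and 1.29-fold higher. Its second probe set was higher by 0.36 and 0.64 on the log2 scale.

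Differences in the same direction were measured for *Kcnk2* and *Kcnj11*, pores of the resting current. *Kcnk2*, the stretch-activated TREK-1, gave 118 in untreated *PMCA4*-/- cells, against 88.6 in untreated WT cells. With phenylephrine it gave 116 in *PMCA4*-/- cells, against 81.6 in WT cells. It was 1.33-fold and 1.43-fold higher. *Kcnj11*, the Kir6.2 pore, gave 85.4 in untreated *PMCA4*-/- cells, against 63.0 in untreated WT cells. With phenylephrine it gave 80.1 in *PMCA4*-/- cells, against 59.5 in WT cells. It was 1.35-fold higher in each pair, but RMA differences were only 0.12 and 0.04 on the log2 scale. Its regulatory partners *Abcc8* and *Abcc9*, the sulphonylurea receptors, were below the median on all arrays.

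The voltage-gated pores described here were close between genotypes or did not keep a direction. *Kcnd1* gave 195 in *PMCA4*-/- and 178 in WT cells untreated, and 218 in *PMCA4*-/- and 193 in WT cells with phenylephrine. Both *PMCA4*-/- arrays were above both WT arrays, by little. *Kcna7* gave 64.6 in *PMCA4*-/- and 43.4 in WT cells untreated, but 64.0 in *PMCA4*-/- and 67.8 in WT cells with phenylephrine. The genotypes overlapped for *Kcna7*. *Kcnh3* gave 65.3 in *PMCA4*-/- and 33.4 in WT cells untreated, but 29.3 in *PMCA4*-/- and 48.7 in WT cells with phenylephrine, crossing the median in both genotypes. In RMA the 4 *Kcnh3* values spanned only 184 to 200.

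**Figure D2:**
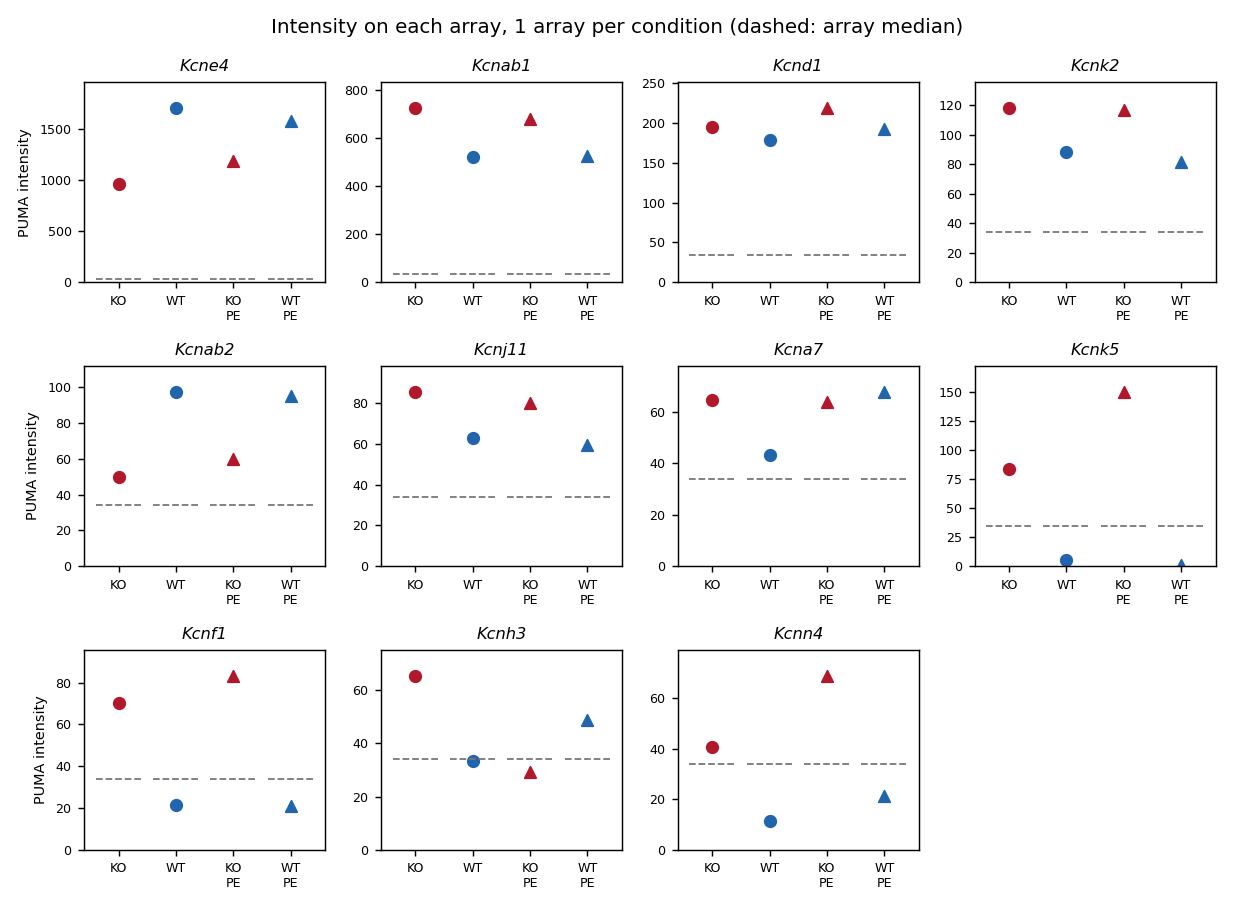
PUMA intensity (linear units, axes from 0) of 11 members above the line, 1 point per array, with *PMCA4*-/- (KO, red) left of WT (blue), circles untreated and triangles phenylephrine (PE). Dashed marks are the array medians of 34.0. *Kcnk5*, *Kcnf1* and *Kcnn4* sit above them only in *PMCA4*-/- cells.

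Counted at 2-fold, a few members were higher in *PMCA4*-/- cells and none was lower. In the untreated pair 2 of the 12 counted members were at least 2-fold higher in *PMCA4*-/- cells (*Kcnk5* and *Kcnf1*), against 4.46% of the 11424 counted genes, and 0 were lower, against 4.77%. In the phenylephrine pair 3 were higher (with *Kcnn4*), against 4.80%, and 0 were lower, against 4.88%. In both pairs at once 2 were higher, against 3.89%, and 0 were lower, against 4.06%. *Kcnk5*, *Kcnf1* and *Kcnn4* were among the 12 counted members only because their *PMCA4*-/- arrays were bright, so these counts are a description and nothing is read from them. RMA values of the same 12 genes, taken as given, put *Kcnk5* and *Kcnf1* 2-fold apart in each pair. The shares of all counted genes were 7.51% untreated and 7.70% with phenylephrine. With the filter taken again on RMA and dim RMA values raised to the array median, the counts were 0 untreated and 1 with phenylephrine. These were out of 15 members, against 6.27% and 6.17% of the genes so counted. After the shift of neighbouring genes on the chromosome was subtracted, *Kcnk5* was still 2-fold apart in the untreated pair and *Kcnf1*, at 0.85 on the log2 scale, was not.

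The 4 arrays allow a limma fit with genotype and treatment as factors, whose error is the disagreement between both genotype differences and not the spread between cultures. It called 6 members higher in *PMCA4*-/- cells (*Kcnk5*, *Kcnf1*, *Kcnn4*, *Kcnab1*, *Kcnk2* and *Kcnj11*), against 24.6% of counted genes, and 2 lower (*Kcne4* and *Kcnab2*), against 25.7%. Of the 6, *Kcnk5*, *Kcnf1* and *Kcnn4* entered the fit only through their *PMCA4*-/- arrays and with WT values below the median, so no p-value or fitted difference is given for them. Adjusted p-values in limma (Benjamini-Hochberg over all counted genes) were 0.0161 for *Kcnab1*, 0.0127 for *Kcnk2*, 0.0128 for *Kcnj11*, 0.0221 for *Kcne4* and 0.00749 for *Kcnab2*. The fitted log2 differences were 0.42 ± 0.07 for *Kcnab1*, 0.46 ± 0.07 for *Kcnk2*, 0.43 ± 0.07 for *Kcnj11*, -0.61 ± 0.12 for *Kcne4* and -0.81 ± 0.10 for *Kcnab2* (SE). *Kcnd1*, *Kcna7* and *Kcnh3* did not pass, with limma adjusted p-values of 0.14, 0.309 and 0.836. With RMA the *Kcnj11* call was lost, at a limma adjusted p of 0.261 (0.00434 to 0.261 over its alternatives), and with no filter on dim genes no member and no gene at all was called.

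**Figure D3:**
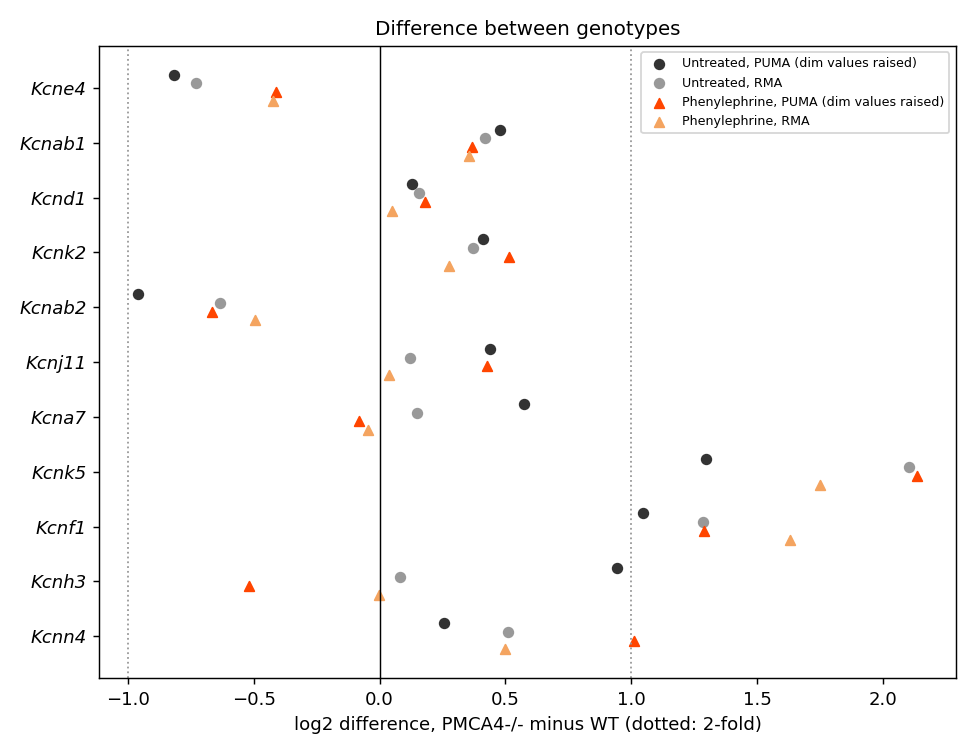
log2 difference, *PMCA4*-/- minus WT, for 11 counted members in the untreated pair (circles) and the phenylephrine pair (triangles). Dark points are PUMA with dim values raised and pale points are RMA with dim values not raised. Dotted lines mark 2-fold. *Kcne4* and *Kcnab2* lie left of 0 and *Kcnk5* and *Kcnf1* furthest right in both estimates.

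Over all 82 members, dim ones included, the median RMA difference between *PMCA4*-/- and WT cells was 0.12 on the log2 scale untreated and 0.06 with phenylephrine, against 0.03 and 0.01 over all genes. In the untreated pair 59 members (72.0%) were higher in *PMCA4*-/- cells, against 54.0% of all genes. In the phenylephrine pair 49 (59.8%) were, against 51.2%. Such shares also differed from those of all genes between treatments, where limma called no member. With phenylephrine 61.0% of members were higher in WT cells, against 51.4% of all genes, and 39.0% in *PMCA4*-/- cells, against 51.3%. Most members were dim, so nothing is read from these shares. The genotype differences of members ran from -1.18 to 2.11 untreated and from -0.80 to 1.75 with phenylephrine. The low end in both pairs was *Kcnt2*, a sodium-activated pore named here after its values were seen. Its PUMA intensities were 5.11 and 3.25 in *PMCA4*-/- cells (untreated, phenylephrine), against 27.9 and 22.8 in WT cells, below the median throughout. *Kcnt2* lies on chromosome 1 with *Atp2b4*, with 65 measured genes between them, the fewest of the 8 members on that chromosome. *Kcne4* and *Kcnk2* lie there too, with 258 and 401 measured genes between.

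Sequence upstream of the start site is shown for *Kcnk5*, *Kcnf1* and *Kcnn4*, which were above the PUMA median only in *PMCA4*-/- cells. Their means were over the line. *Kcne4* is shown as the brightest gene that was lower in *PMCA4*-/- cells. Each run is the 250 bases before the RefSeq start site in GRCm38.p6, read 5′ to 3′ on the gene's strand. Capitals mark matches, on either strand, to TATAAA (the TATA box), GGGCGG (the Sp1 box), GGAAA (the core of NFAT sites) or the NF-κB consensus.
Kcnk5, chr14:20181783-20182032, minus strand: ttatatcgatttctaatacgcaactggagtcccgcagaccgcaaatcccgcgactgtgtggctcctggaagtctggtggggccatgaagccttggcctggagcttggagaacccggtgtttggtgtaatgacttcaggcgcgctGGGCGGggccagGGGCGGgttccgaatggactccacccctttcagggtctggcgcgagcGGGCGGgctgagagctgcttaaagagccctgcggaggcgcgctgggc
Kcnf1, chr12:17176889-17177138, minus strand: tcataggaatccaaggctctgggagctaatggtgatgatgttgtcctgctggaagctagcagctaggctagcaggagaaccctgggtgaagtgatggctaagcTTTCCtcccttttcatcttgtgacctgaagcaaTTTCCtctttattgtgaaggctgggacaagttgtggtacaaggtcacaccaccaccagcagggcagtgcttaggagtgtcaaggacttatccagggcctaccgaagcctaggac
Kcnn4, chr7:24370013-24370262, plus strand: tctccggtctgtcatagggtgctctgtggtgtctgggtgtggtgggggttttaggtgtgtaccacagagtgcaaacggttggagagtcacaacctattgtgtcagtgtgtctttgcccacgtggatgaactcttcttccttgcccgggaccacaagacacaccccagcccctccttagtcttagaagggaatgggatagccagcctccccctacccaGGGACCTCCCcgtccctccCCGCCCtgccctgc
Kcne4, chr1:78816661-78816910, plus strand: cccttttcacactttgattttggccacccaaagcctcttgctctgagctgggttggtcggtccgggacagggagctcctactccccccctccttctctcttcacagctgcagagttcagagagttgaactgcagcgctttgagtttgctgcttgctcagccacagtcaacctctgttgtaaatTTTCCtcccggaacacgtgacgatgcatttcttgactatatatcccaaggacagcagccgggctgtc

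*Kcnk5* held 3 GGGCGG boxes in a stretch of 62.8% GC, where the median over all start sites was 52.4%. *Kcnf1* held 2 GGAAA cores, *Kcnn4* held 1 GGGCGG box and 1 NF-κB match, and *Kcne4* held 1 GGAAA core. The motifs are common. Over all 32851 start sites, GGAAA was found in 55.6%, GGGCGG in 32.7%, TATAAA in 12.4% and the NF-κB consensus in 7.25%. Over the 84 start sites of the 59 members in the RefSeq table these shares were 51.2%, 42.9%, 3.57% and 7.14%. A match is a run of letters and not a measured site.

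The second question was whether phenylephrine changed the family. No member was 2-fold apart between phenylephrine-treated and untreated cells in either genotype, against 0.0525% of counted genes in *PMCA4*-/- cells and 0.0175% in WT cells. At 1.5-fold and the same direction in each genotype, 0% of counted genes and no member passed. The limma fit called 0 members and 0% of genes for treatment. At an unadjusted limma p under 0.05 it had 459 genes (4.02% of counted genes) and 1 member, *Kcnn4*. Both WT values of *Kcnn4* were below the median, so no p-value is given for it.

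In PUMA the members that came nearest did so in 1 genotype. *Kcnk5* was 1.79-fold higher and *Kcnn4* 1.69-fold higher with phenylephrine in *PMCA4*-/- cells, while both WT values of each gene were below the median and give no fold. *Kcnh3* was at least 1.92-fold lower with phenylephrine in *PMCA4*-/- cells and at least 1.43-fold higher in WT cells. *Kcna7* was 1.56-fold higher in WT cells and within 1.01-fold in *PMCA4*-/- cells. In RMA these differences were smaller. On the log2 scale they were 0.43 for *Kcnk5*, 0.14 for *Kcnn4* and -0.12 for *Kcnh3* in *PMCA4*-/- cells, and 0.11 for *Kcna7* in WT cells. *Kcnk5* was also higher with phenylephrine in WT cells in RMA, by 0.78, though both WT values were below the RMA array median. The phenylephrine and genotype comparisons use the same 4 arrays.

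**Figure D4:**
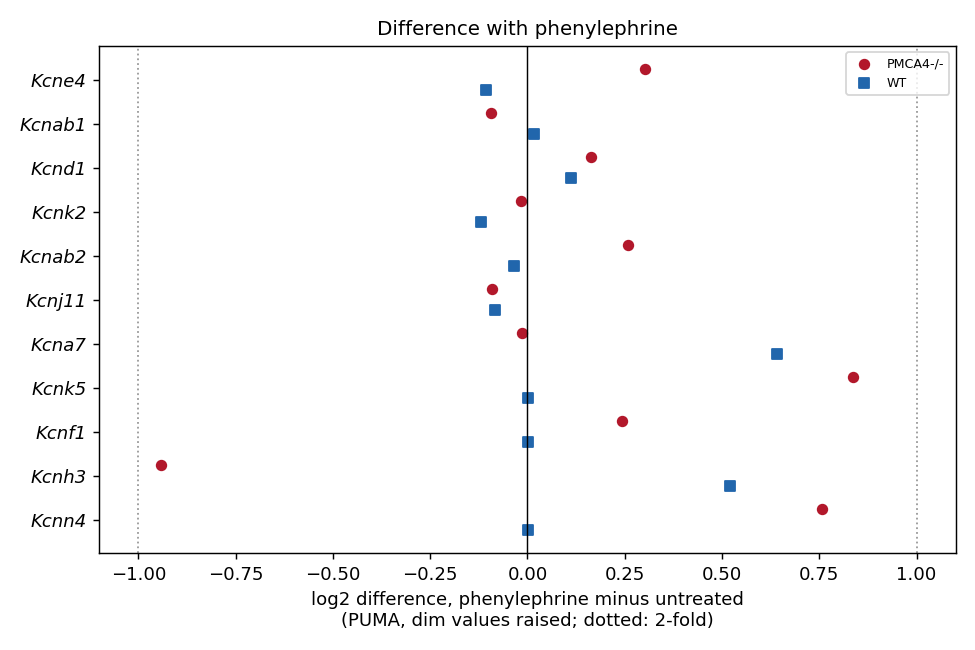
log2 difference, phenylephrine minus untreated, for 11 counted members in *PMCA4*-/- (red circles) and WT cells (blue squares), from PUMA with dim values raised to the array median. Dotted lines mark 2-fold. All points lie between the dotted lines, and a point at 0 in WT for *Kcnk5*, *Kcnf1* and *Kcnn4* means that both values were below the median.

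Genes that work beside the potassium channels were read from lists. The calls by limma below stand against the same 24.6% of all counted genes called higher and 25.7% called lower, and with 1 to 5 genes counted in a list nothing is read from its number of calls. Of 8 measured auxiliary subunits with other symbols, 0 were counted. Of 14 subunits and regulators of the sodium-potassium pump, which builds the potassium gradient, 5 were counted, 1 called higher and 3 lower in *PMCA4*-/- cells by limma. *Atp1b1*, a β subunit of the pump, was 3.48-fold lower untreated and 3.12-fold lower with phenylephrine. *Fxyd1*, phospholemman, was 4.15-fold and 3.76-fold lower, and *Fxyd5* was 3.00-fold and 3.45-fold higher. Of 6 potassium-coupled chloride cotransporters 5 were counted, 2 called higher and 2 lower. *Slc12a2*, the NKCC1 cotransporter, was 2.19-fold and 2.28-fold lower. Of 18 sodium and calcium channel pores 4 were counted, and limma called 3 higher and 0 lower. *Cacna1a* (Cav2.1) was 3.78-fold and 3.49-fold higher and *Cacna1g* (Cav3.1, a T-type pore) 2.63-fold and 2.56-fold higher. Of 3 HCN pores, which carry sodium and potassium, 1 was counted and 0 were called.

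Some markers of fibroblasts and of other cell types differed between genotypes, and others in the same lists did not. The summed intensity of 7 smooth muscle markers was 12116 and 12251 in *PMCA4*-/- cells (untreated, phenylephrine), against 3435 and 3389 in WT cells, of which *Acta2* alone made up 84.7% in untreated *PMCA4*-/- cells. *Acta2* and *Lmod1* were higher there, with *Myh11* and *Des* below the median on all arrays. The sum of 7 macrophage markers was 2190 and 2435 in *PMCA4*-/- cells, against 1505 and 1676 in WT cells. *Cd14* made up 59.1% of it in untreated *PMCA4*-/- cells. Of these markers limma called *Csf1r* and *Cd14* higher and did not call *Adgre1* and *Lyz2*. *Ptprc*, *Cd68* and *Itgam* were below the median on all arrays. The pericyte sum was 8469 and 7910 in *PMCA4*-/- cells, against 8388 and 8561 in WT cells, and *Pdgfrb* alone made up 91.8% of it in untreated *PMCA4*-/- cells. Beneath that sum *Rgs5* gave 30.3 and 34.4 in *PMCA4*-/- cells, against 185 and 186 in WT cells. In this list limma called *Rgs5* and *Notch3* lower and did not call *Cspg4*, *Pdgfrb* and *Ndufa4l2*. Below the median on all arrays were 5 of 7 endothelial and 6 of 7 cardiomyocyte markers. Of 10 fibroblast markers 9 were counted, with *Tcf21* below the median. Among them limma called *Col1a1*, *Col3a1*, *Postn* and *Vim* higher and *Pdgfra* and *Lum* lower. The part of other cell types in the differences between genotypes was not tested. In pooled RNA fewer cells of a type and less RNA per cell cannot be told apart.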

How the data were processed

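Fibroblast RNA was hybridized to 4 arrays, 1 per genotype and treatment. For 45037 probe sets the authors deposited an intensity per array, in linear units, from PUMA in one table and RMA in another. The third table equals the PUMA values within a relative difference of 0.0001. The submitters' processing notes name MAS5 and RMA. Their versions and the genome build were not given in the sources used here. The paper names MOE430A arrays. The authors' signed fold changes per pair and PUMA probabilities of a positive log ratio were not used.

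Here, 37818 probe sets with 1 symbol gave 20587 genes after symbols were updated through RefSeq tables (31088 current, 3520 by accession, 391 by synonym, 2819 kept). Only symbols as deposited decided membership. Genes with a mean PUMA above 35.1 were counted (11424). Values were log2-transformed without a pseudocount. For folds, values under the array median were raised to it, and a fold with 1 dim side is a lower bound. limma 3.58.1 in R 4.3.3 fitted genotype plus treatment with lmFit and eBayes (1 residual and 2.96 prior degrees of freedom), with Benjamini-Hochberg adjustment at 0.05. On simulated data for the genotype comparison over 11424 genes it called 43, 49 and 50 of 50 genes at log2 changes of 1, 2 and 3, and 50 of 50 at -2. The simulated spread was taken from the fit itself, not from cultures, and most genes were left unchanged. These counts therefore check the code and do not bear on the calls made on the real arrays.

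Named genes were the members counted, with every array value for those 2-fold apart in both genotype pairs, the 10 brightest, and the rest by difference. Members, lists and tests were chosen with earlier results of these data known. Alternatives were RMA values, dim values left as given, median centring, quantile normalization, the median over probe sets, no filter, an upper-quartile filter, a 1.5-fold threshold, subtraction of the median of the 100 nearest genes, limma with an intensity trend and limma with only 1 factor. Other probe sets of the counted members, RMA values of the counted genes as given, and RMA and quantile values for the split at the array median, were added after seeing the data. Each condition had 1 array, which limits the precision. Some of the 82 members, 1 of the 12 counted among them, are not reported here by name. Promoter sequences came from RefSeq (GRCm38.p6).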

Additional observations from a re-analysis of the deposited data

Results flagged for a closer look

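Several counted members moved in opposite directions with phenylephrine in the 2 genotypes. Each direction comes from 1 pair of arrays, and the difference between genotypes was not tested. Unless RMA is named, values are log2 differences from PUMA with dim values raised. *Kcne4* moved by 0.30 in *PMCA4*-/- cells and -0.11 in WT cells, a difference of 0.41. *Kcnab2* moved by 0.26 in *PMCA4*-/- cells and -0.03 in WT cells, a difference of 0.29. *Kcnab1* moved by -0.09 in *PMCA4*-/- cells and 0.02 in WT cells, a difference of -0.11. These 3 differences are all under 1.5-fold. In RMA values as given *Kcne4* again moved in opposite directions, by 0.21 in *PMCA4*-/- cells and -0.09 in WT cells. *Kcnab2* there moved the same way in both, by 0.21 in *PMCA4*-/- cells and 0.07 in WT cells, and so did *Kcnab1*, by -0.09 in *PMCA4*-/- cells and -0.02 in WT cells.

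*Kcna7* and *Kcnh3* also changed direction between genotype pairs. *Kcna7* moved with phenylephrine by -0.01 in *PMCA4*-/- cells and 0.64 in WT cells, and *PMCA4*-/- minus WT was -0.08 with phenylephrine and 0.57 untreated, each a difference of -0.65. *Kcnh3* moved by -0.94 in *PMCA4*-/- cells and 0.52 in WT cells, and *PMCA4*-/- minus WT was -0.52 with phenylephrine and 0.94 untreated, each a difference of -1.46. The same probe sets of *Kcna7* and *Kcnh3* in RMA gave genotype differences between -0.04 and 0.15, and *Kcnh3* moved with phenylephrine by -0.12 in *PMCA4*-/- cells and -0.04 in WT cells.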

How the results depend on the processing

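Median centring and quantile normalization left all counts of members as they were, and no difference past 2-fold and no call reversed. Smaller differences with phenylephrine did change sign in RMA, as for *Kcnh3* in WT cells (-0.04 on the log2 scale, against 0.52 in PUMA) and *Kcnab2* in WT cells (0.07, against -0.03 in PUMA). Shares of all counted genes past the same cut are given in brackets. In the untreated pair the 2 of 12 members 2-fold apart (9.23%) became 0 of 15 with RMA values (6.27%). There the filter and the raising of dim values were taken on RMA as well. The count stayed 2 with RMA values of the same genes as given (7.51%), an alternative chosen after seeing the data. It became 0 of 4 with the median over probe sets (8.77%) and 0 of 2 with the upper-quartile filter (5.79%). At a 1.5-fold threshold it was 5 (21.8%), and after subtracting the shift of neighbouring genes it was 1 (8.33%). In the phenylephrine pair the 3 members became 1 and 2 with those RMA settings, 0 with the median over probe sets, 0 with the upper-quartile filter, 4 at 1.5-fold and 2 after subtracting the shift of neighbouring genes, where *Kcnn4* was at 0.98 on the log2 scale. For phenylephrine against untreated, the count of 0 became 1 in *PMCA4*-/- cells (0.508%) and 1 in WT cells (0.473%) with dim values not raised. At 1.5-fold it became 3 in *PMCA4*-/- cells (0.665%) and 1 in WT cells (0.508%). The 8 members that limma called for genotype (50.3%) became 3 of 4 with the median over probe sets (41.8%) and 2 of 2 with the upper-quartile filter (67.6%). With no filter 0 of 82 members and 0% of all genes were called. Otherwise the count lay between 7 and 9, against 50.1% to 62.4% of counted genes. The treatment count was 0 in every fit. Of 142 log2 differences between genotypes under an alternative 29 moved, and of 142 with phenylephrine 14 moved. Of 82 limma effects, each a named counted member under 1 alternative, 9 lost and 0 gained the call. Calls were gained outside those 82. The RMA fit also called *Kcnk4*, and 9 members were called with dim values raised and with only 1 factor. Values from other probe sets, chosen after seeing the data, moved in 6 of 7 cases. The cause of these moves was not tested. No paired analysis was possible because the groups share only replicate number 1. The limma fit itself compares genotypes within each treatment. With 1 array left out, the fit with both factors has no residual degree of freedom. Values under the array median are bounds only.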
